A study of Mus with 7 samples.

Results

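Expression of 10 genes of the Toll-like receptor 4 (TLR4) receptor complex and its adaptors was examined in fetal liver-derived macrophages (FLMs): Tlr4, Cd14, Ly96, Tlr2, Myd88, Tirap, Ticam1, Ticam2, Irak1 and Irak3. The genes were chosen by symbol from knowledge of the pathway, with earlier results of these data known. Each symbol matched 1 of the 31053 genes in the count tables. FLMs were grown from livers of wild-type C57BL/6J mouse fetuses in 30 ng/mL GM-CSF, and the study used them after repeated passage, so they are a cultured model and not freshly isolated cells. Single cells of 7 conditions were profiled in droplets, in which every captured RNA molecule carries a unique molecular identifier (UMI). Con cells were collected in 10% serum before any treatment. In Veh.LPS.0, cells were kept for 24 h in 0.25% serum with 8.3 µM bovine serum albumin (BSA), and in DHA.LPS.0 the BSA carried 25 µM docosahexaenoic acid (DHA), an omega-3 fatty acid. In Veh.LPS.1, DHA.LPS.1, Veh.LPS.4 and DHA.LPS.4 that medium was then replaced with 20 ng/mL lipopolysaccharide (LPS) for 1 or 4 h, without DHA in the medium as the protocol describes it. GM-CSF was present in all 7 conditions.

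LPS is the outer-membrane glycolipid of Gram-negative bacteria. CD14 hands it to the lipid-binding protein MD-2 (encoded by Ly96), which sits on the outer part of TLR4, and binding brings receptors together as dimers. At the cell surface TIRAP and MyD88 assemble with the IRAK kinases and drive NF-κB and the early cytokine genes. After uptake into endosomes, TRAM (Ticam2) and TRIF (Ticam1) drive IRF3 and type I interferon. IRAK3, also called IRAK-M, restrains this signalling in macrophages, and TLR2 senses bacterial lipoproteins through the same TIRAP and MyD88 route.

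Barcodes with over 20000 UMIs, at least 2000 genes and under 20% mitochondrial UMIs were kept as cells, which left 692 to 3073 cells per library and 22045775 to 125716982 UMIs. The kept share of barcodes was 40.6% to 62.5% in Con and the Veh libraries and 12.1% to 18.5% in the DHA libraries, and the removed barcodes are described further on. Median depth ranged from 29369 to 56239 UMIs per cell. All kept cells held at least 3 of 9 macrophage markers, of which Mertk had no UMI in 5 of the libraries, whereas for lymphoid, dendritic, stromal, hepatocyte, erythroid, mast cell and neutrophil lists not a single cell reached 3 markers. The summed level of these other lists stayed between 0 and 7.71 CPM (UMIs per 1000000 UMIs of the library). Free RNA could not be measured, because no other cell type was present to hold it, and the shares of positive cells below have no such background beside them. Libraries shared at most 22 barcodes with each other. Each condition had only 1 library, and differences between conditions therefore carry no replicate check and could not be tested. Intervals are exact 95% intervals that cover counting error only, Poisson for a level and binomial for a share or a ratio.

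The LPS-binding members Cd14 and Ly96 had their highest levels after 4 h of LPS, while the receptor gene Tlr4 had its highest level in untreated cells. Tlr4 (ENSMUSG00000039005, chr4:66827551-66846581 in mm10) stood at 32.0 CPM in Con. The Veh libraries gave 20.9 CPM before LPS, 14.6 CPM after 1 h and 17.0 CPM after 4 h, and the DHA libraries 22.1, 16.4 and 16.1 CPM. Con stood above the other libraries, both reduced-serum libraries without LPS came next with overlapping intervals, and among the 4 LPS libraries each overlapped its neighbour in the order.

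Cd14 (ENSMUSG00000051439, chromosome 18), the surface co-receptor that collects LPS, stood at 841 CPM in Con. It reached 771 CPM in Veh before LPS, 1029.7 CPM after 1 h and 1943 CPM after 4 h, and with DHA 631, 808 and 1742 CPM. No neighbours in this order had overlapping intervals, and at each hour the DHA library lay below the Veh library. Ly96 (ENSMUSG00000025779, chr1:16688456-16709605) stood at 17.9 CPM in Con. Before LPS and after 1 and 4 h it measured 17.1, 19.0 and 44.6 CPM with Veh, against 14.5, 19.5 and 39.2 CPM with DHA. Its libraries at 4 h stood apart, Veh.LPS.4 above DHA.LPS.4. DHA.LPS.0 was lowest, and Veh.LPS.0, Con and both 1 h libraries overlapped in turn.

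Tlr2 (ENSMUSG00000027995, chr3:83836272-83841824), the lipoprotein receptor, stood at 55.8 CPM in Con, and over the same time points its levels were 52.7, 81.5 and 187 CPM with Veh, against 49.1, 88.0 and 164 CPM with DHA. The level was higher at 1 h than at 0 h and higher again at 4 h in both treatments, and only the intervals of DHA.LPS.0 and Veh.LPS.0 overlapped among neighbours.

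**Figure D1:**
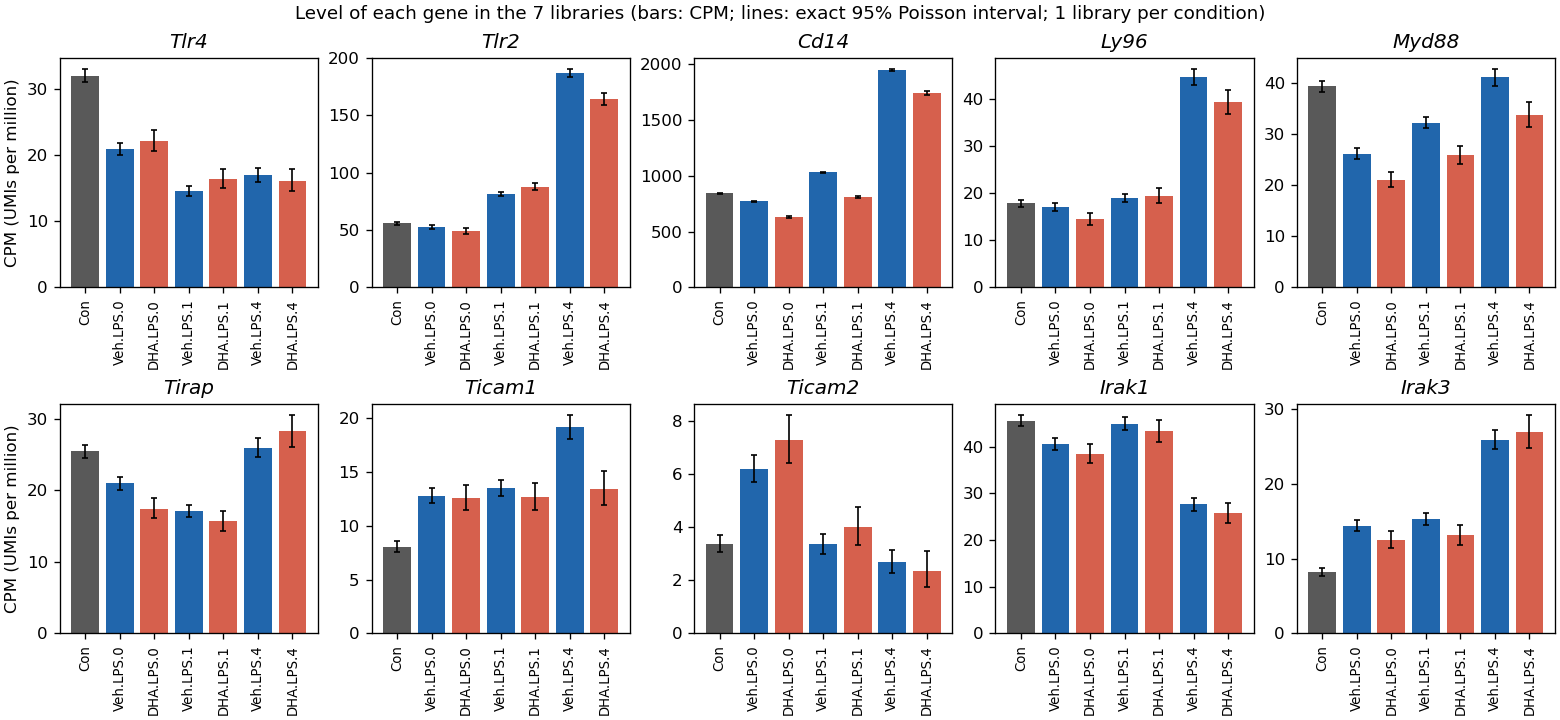
Level of each of the 10 genes in CPM (UMIs per 1000000 UMIs of the library, linear axis from 0) in the 7 libraries, 1 library per condition. Bars are grey for Con, blue for Veh and red for DHA, and lines are exact 95% Poisson intervals. Tlr2, Cd14 and Ly96 were highest in the libraries at 4 h, Tlr4 was highest in Con at 32.0 CPM, and Ticam2 was highest without LPS, at 6.20 CPM in Veh.LPS.0 and 7.28 CPM in DHA.LPS.0.

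Con had more Myd88 and Tirap, and less Ticam1 and Ticam2, than Veh.LPS.0. Myd88 (ENSMUSG00000032508, chr9:119335934-119340018), the adaptor shared by most Toll-like receptors, stood at 39.4 CPM in Con, and measured 26.2, 32.3 and 41.1 CPM with Veh, against 21.1, 25.9 and 33.8 CPM with DHA, before LPS and after 1 and 4 h. Con and Veh.LPS.4 were the highest libraries and overlapped, and DHA.LPS.0 was the lowest. Tirap (ENSMUSG00000032041, chr9:35184391-35200291), which bridges MyD88 to the receptor at the plasma membrane, stood at 25.5 CPM in Con, then 21.0, 17.1 and 26.0 CPM with Veh, against 17.4, 15.7 and 28.3 CPM with DHA. Its lowest values were those at 1 h and its highest those at 4 h, with the intervals of Con, Veh.LPS.4 and DHA.LPS.4 overlapping in turn. Tirap overlaps the gene model Gm39318, so part of its reads could belong to that model.

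Ticam1 (ENSMUSG00000047123, chr17:56269462-56276767), which encodes TRIF, stood at 8.03 CPM in Con. With Veh its levels over the time course were 12.8, 13.5 and 19.1 CPM, and with DHA they were 12.6, 12.7 and 13.4 CPM. Con was the lowest library and Veh.LPS.4 the highest, and the other 5 overlapped their neighbours. Ticam2 (ENSMUSG00000056130, chromosome 18), which encodes the bridging adaptor TRAM, stood at 3.38 CPM in Con, then 6.20, 3.36 and 2.70 CPM with Veh, against 7.28, 3.99 and 2.36 CPM with DHA. Both libraries in reduced serum without LPS stood above the other 5, whose intervals overlapped in turn. Ticam2 rests on 52 UMIs in DHA.LPS.4 and on at most 612 UMIs in any library, so it is the least precise of the 10 genes.

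Irak1 (ENSMUSG00000031392, chrX:74013914-74023921), the kinase recruited to MyD88, stood at 45.6 CPM in Con, then 40.7, 45.0 and 27.7 CPM with Veh before LPS and after 1 and 4 h, against 38.5, 43.3 and 25.7 CPM with DHA. Both libraries at 4 h overlapped each other and lay below the other 5. Irak3 (ENSMUSG00000020227, chr10:120141648-120202130) stood at 8.20 CPM in Con, then 14.4, 15.3 and 25.9 CPM with Veh, against 12.5, 13.1 and 26.9 CPM with DHA. Con was lowest, the libraries at 0 and 1 h overlapped in turn, and both libraries at 4 h were highest and overlapped each other. Irak3 overlaps the gene models Gm34545, Gm40781 and Gm38500, and Irak1 overlaps the microRNA genes Mir5132 and Mir718.

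The first comparison, Veh.LPS.0 against Con, covers the step from 10% to 0.25% serum together with BSA and 24 h of culture, which cannot be told apart. Ticam1 and Irak3 were higher, and Tlr4 and Myd88 lower, by more than 1.5-fold. Irak3 had a ratio of 1.76 (1.62 to 1.90) and Ticam1 a ratio of 1.59 (1.46 to 1.73), while Tlr4 had 0.655 (0.621 to 0.690) and Myd88 0.666 (0.634 to 0.698). A gene was counted where its ratio passed 1.5-fold and at least 1 of the pair of libraries had it in 25% of cells or more, a rule of size and not a test, and 9 of the 10 genes could be counted. Of 8252 genes that could be counted, 9.31% were higher and 7.76% lower, against 2 and 2 of the 9 genes here. Ticam2, with too few positive cells to be counted, had a ratio of 1.83 (1.62 to 2.08). The median log2 ratio was -0.13 for the 9 genes and -0.07 for all genes counted. At equal depth in every cell Ticam1 and Irak3 no longer reached 25% of cells in either library.

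After 1 h of LPS, Tlr2 was the member past the limit in both treatments, with a ratio to 0 h of 1.55 (1.49 to 1.60) for Veh and 1.79 (1.69 to 1.91) for DHA. It was 1 of 9 genes counted in Veh, where 4.15% of 8089 genes were higher and 4.24% lower, and 1 of 10 in DHA, where 4.66% of 8474 genes were higher and 4.97% lower. In Veh no member was lower by more than 1.5-fold among those counted, and in DHA Ticam2 was, with a ratio of 0.548 (0.440 to 0.681). Ticam2 could be counted in DHA only through DHA.LPS.0, where 28.4% of cells had it, against 14.6% in DHA.LPS.1. At equal depth the share in DHA.LPS.0 was 12.8%, and Ticam2 could not be counted. Ticam2 had nearly the same ratio in Veh, 0.543 (0.473 to 0.623), where it fell under the limit on the share of cells. Cd14 was 1.34 times its 0 h level in Veh (1.32 to 1.35) and 1.28 times in DHA (1.26 to 1.30), and Myd88 1.23 times in each. Tlr4 had ratios of 0.695 (0.648 to 0.744) in Veh and 0.743 (0.664 to 0.831) in DHA. Per cell without scaling, Tlr2 was no longer past the limit, with log2 ratios of 0.26 in Veh and 0.52 in DHA, and no member was higher, where 2.31% and 2.56% of all genes were. Tlr4 was then lower by more than 1.5-fold in both treatments, with Tirap in Veh and Ticam2 in DHA, where 27.7% and 25.3% of all genes were lower. In that setting Myd88 was slightly below its 0 h level, with log2 ratios of -0.07 in Veh and -0.03 in DHA, and the signs of Ticam1, Irak1 and Irak3 in both treatments and of Ly96 in Veh changed as well. The median log2 ratio of the genes counted was 0.15 in Veh and 0.12 in DHA, beside -0.10 and -0.12 for all genes.

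After 4 h of LPS the LPS-binding and lipoprotein-sensing members were well above their 0 h levels in both treatments. Tlr2 had the highest ratio of the 10 genes, 3.55 (3.43 to 3.67) in Veh and 3.34 (3.16 to 3.54) in DHA, which placed it at rank 181 of 8385 genes and rank 160 of 8477 genes. Ly96 had ratios of 2.61 (2.46 to 2.78) in Veh and 2.70 (2.42 to 3.02) in DHA, and Cd14 had 2.52 (2.50 to 2.54) and 2.76 (2.72 to 2.81). Irak3 had ratios of 1.80 (1.67 to 1.93) and 2.15 (1.90 to 2.44), and Myd88 1.57 (1.48 to 1.66) and 1.60 (1.44 to 1.78). Tirap was past the limit in DHA, at 1.62 (1.45 to 1.81), and had 1.24 (1.16 to 1.32) in Veh. Ticam1 had a log2 ratio of 0.58 in Veh, just inside the limit, and a ratio of 1.07 (0.917 to 1.24) in DHA.

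In counts, 5 of 9 members were higher in Veh, where 10.2% of all genes were higher and 38.3% lower, and none of the 9 was lower. In DHA 6 of 10 were higher, where 9.64% of all genes were higher and 33.6% lower, and Ticam2 was lower with a ratio of 0.324 (0.236 to 0.438). Ticam2 again could be counted only through DHA.LPS.0, and at equal depth it could not be counted. In Veh the ratio of Ticam2 was 0.435 (0.363 to 0.519). The median log2 ratio was 0.65 in Veh and 0.69 in DHA for the members and -0.36 and -0.29 for all genes counted. Irak1 was on the other side, with ratios of 0.681 (0.642 to 0.721) in Veh and 0.667 (0.604 to 0.737) in DHA, just inside the limit, and Tlr4 had 0.810 (0.750 to 0.874) and 0.730 (0.642 to 0.829).

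These ratios at 4 h depend on how libraries are scaled. TMM factors, which centre the bulk of genes, raised every log2 ratio at 4 h by 0.43 in Veh and 0.30 in DHA, and the median of all genes in Veh then was 0.07. With TMM the share of called genes that were higher went from 21.1% to 50.6% in Veh and from 22.3% to 46.6% in DHA. It went from 49.5% to 61.3% in Veh and from 48.4% to 63.9% in DHA at 1 h. Under TMM 7 members were higher in Veh, with Tirap and Ticam1 added, where 21.6% of all genes were higher, and 6 in DHA, where 18.3% were. Tlr4 changed direction in Veh at 4 h, with a log2 ratio of -0.30 by total UMIs, 0.13 with TMM, 0.15 with DESeq2 size factors and 0.26 per cell without scaling. In DHA it stayed below its 0 h level with TMM and DESeq2 size factors. Irak1 in Veh at 4 h had a log2 ratio of 0.01 per cell without scaling. In DHA at 4 h the unscaled counts were 3 members higher, without Myd88, Tirap and Irak3, and 3 lower, with Tlr4 and Irak1 beside Ticam2, where 3.5% of all genes were higher and 71.8% lower.

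Between 1 h and 4 h of LPS, Tlr2, Cd14, Ly96, Tirap and Irak3 were higher and Irak1 lower by more than 1.5-fold in Veh, where 7.98% of all genes were higher and 29.3% lower. The members past the limit in DHA were again Tlr2, Cd14, Ly96, Tirap and Irak3 above and Irak1 below, where 6.97% of genes were higher and 23.3% lower. Tirap, which had been below its 0 h level at 1 h, had ratios between the hours of 1.52 (1.42 to 1.63) in Veh and 1.79 (1.59 to 2.02) in DHA. Irak1, which had been slightly above its 0 h level, had ratios of 0.616 (0.581 to 0.652) and 0.594 (0.538 to 0.655). With TMM no member was lower between the hours, and 7 were higher in Veh and 5 in DHA, where all genes gave 16.7% higher and 16.2% lower in Veh and 11.3% higher and 15.7% lower in DHA.

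**Figure D2:**
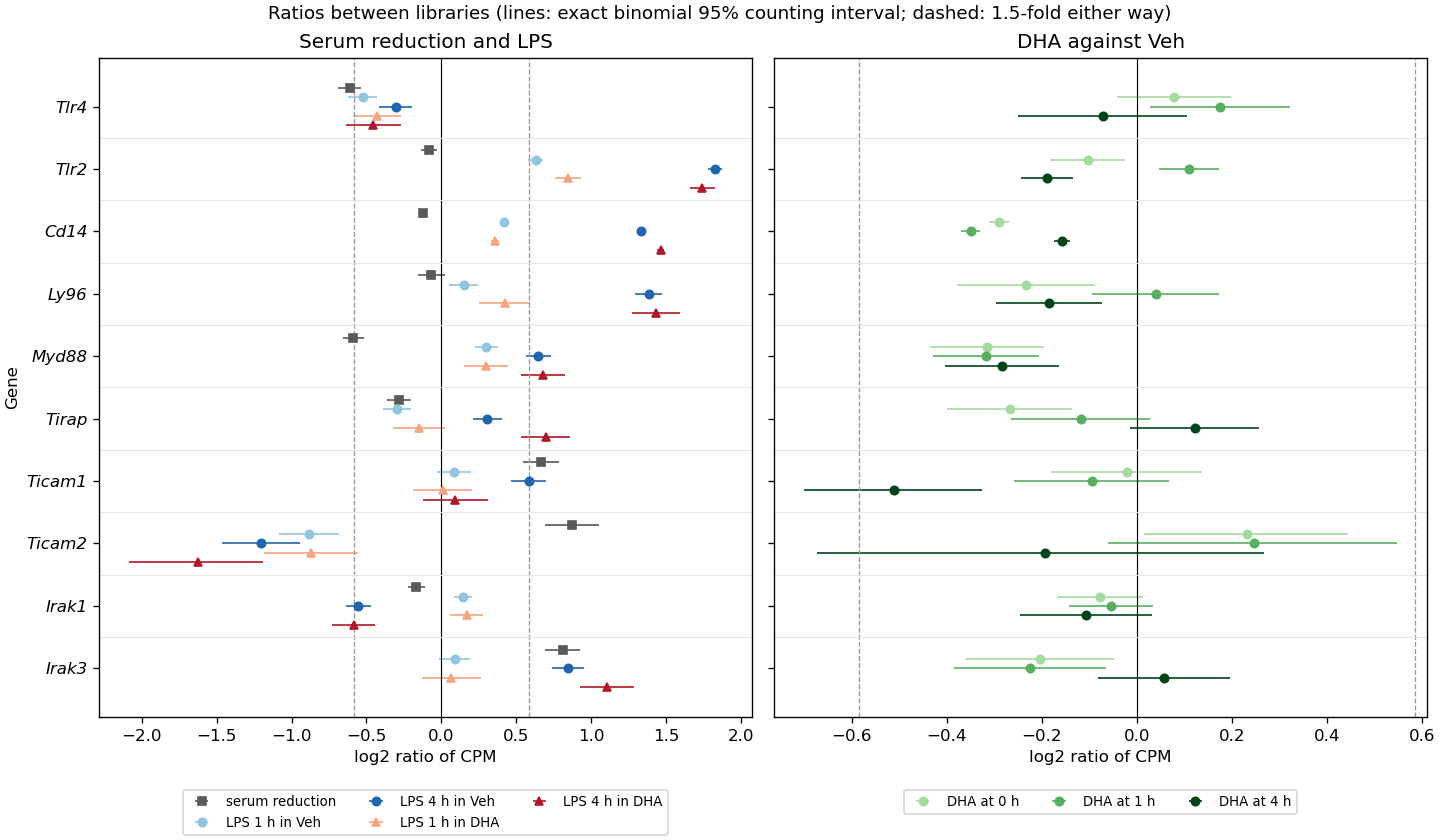
Log2 ratio of CPM between 2 libraries for each gene, with exact binomial 95% counting intervals as lines and dashed lines at 1.5-fold either way; the left panel holds serum reduction (Veh.LPS.0 against Con) and LPS against 0 h within Veh and within DHA, and the right panel DHA against Veh at 0, 1 and 4 h on a narrower axis. Tlr2, Cd14 and Ly96 lie far to the right at 4 h of LPS, with log2 ratios of 1.33 to 1.83. No point lies past a dashed line in the right panel, but the intervals of Ticam1 and Ticam2 at 4 h cross it.

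DHA against Veh was the question of the study. In kept cells, by total UMIs, none of the 10 genes differed between the treatments by more than 1.5-fold at 0, 1 or 4 h. Few genes of any kind did. At 0 h 1.08% of 8434 genes were higher and 0.949% lower, at 1 h 1.33% of 7794 higher and 1.73% lower, and at 4 h 2.22% of 7672 higher and 2.42% lower. With all deposited barcodes, Myd88 was lower with DHA past that limit at 0, 1 and 4 h. Irak3 was lower at 0 h and Ticam1 at 4 h, and Ly96 was higher at 1 h. The share of all genes was not computed for all barcodes. In kept cells, smaller differences were larger than counting error. Cd14 had ratios of DHA to Veh of 0.818 (0.806 to 0.830) at 0 h, 0.785 (0.774 to 0.796) at 1 h and 0.896 (0.886 to 0.907) at 4 h. Myd88 had 0.804 (0.740 to 0.873), 0.803 (0.742 to 0.867) and 0.822 (0.756 to 0.892). Both genes were lower with DHA in each of the 3 pairs of libraries, but 1 library a condition gives no measure of how much 2 libraries of the same condition would differ. Per cell without scaling, their log2 ratios at 0 and 1 h were slightly above 0, at 0.04 and 0.03 for Cd14 and 0.02 and 0.06 for Myd88. At 4 h this setting moved every log2 ratio by -0.89, to -1.05 for Cd14 and -1.17 for Myd88, and all 9 members counted were then lower with DHA by more than 1.5-fold, as were 86.9% of all genes.

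Ticam1 at 4 h came closest to the limit, at 13.4 CPM with DHA against 19.1 CPM with Veh, a ratio of 0.702 (0.615 to 0.798). Its ratio was 0.986 (0.883 to 1.10) at 0 h and 0.937 (0.836 to 1.05) at 1 h. With TMM or DESeq2 size factors Ticam1 at 4 h passed the limit. Irak1 had 0.948 (0.891 to 1.01), 0.963 (0.906 to 1.02) and 0.929 (0.843 to 1.02), and its intervals include 1 at each hour. Tlr4 had 1.06 (0.971 to 1.15), 1.13 (1.02 to 1.25) and 0.952 (0.841 to 1.08). Tlr2 had 0.931 (0.881 to 0.983), 1.08 (1.03 to 1.13) and 0.877 (0.845 to 0.911), on either side of 1, and Ly96 had 0.851 (0.769 to 0.940), 1.03 (0.937 to 1.13) and 0.880 (0.814 to 0.951). Irak3 had 0.868 (0.778 to 0.967), 0.856 (0.766 to 0.956) and 1.04 (0.945 to 1.15). Tirap had 0.831 (0.758 to 0.910), 0.922 (0.832 to 1.02) and 1.09 (0.990 to 1.20), and the signs of Tirap and Irak3 at 4 h changed with TMM. The counting interval of Ticam2 reached from 0.627 to 1.20 at 4 h, so these counts do not settle its direction. Spread between libraries is not part of that interval. The median log2 ratio over the members counted was -0.15, -0.09 and -0.16 at the 3 hours, beside -0.05, -0.05 and 0.08 for all genes. With TMM the share of called genes that were higher at 4 h was 26.8%, against 47.8% by total UMIs.

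Cells differ in depth between libraries, with medians of 56239 UMIs in Veh.LPS.4 and 29631 in DHA.LPS.4, so shares of cells with a UMI were compared after each cell was thinned to 20000 UMIs. No cell was left out by this, since all kept cells had more. Cd14 was then found in 99.7% to 100% of cells of each library. Tlr2 was seen in 62.5% (60.6 to 64.4) of Veh cells before LPS, 70.6% (68.9 to 72.2) after 1 h and 89.7% (87.7 to 91.5) after 4 h, and with DHA in 58.9%, 72.6% and 87.4%. For Ly96 these shares were 28.1%, 31.2% and 55.9% with Veh, against 26.4%, 30.8% and 51.6% with DHA. Tlr4 was seen in 44.5% (42.7 to 46.3) of Con cells, and with Veh in 32.7% (30.9 to 34.6) before LPS, 23.9% (22.4 to 25.5) after 1 h and 27.6% (24.8 to 30.5) after 4 h. Without thinning, the Tlr4 share at 4 h was 54.8% for Veh and 38.3% for DHA, whereas at equal depth the shares were 27.6% and 24.9%, with overlapping intervals. Ticam1, in 61.8% and 33.8% of these cells as deposited, was in 30.9% (28.0 to 33.9) and 24.9% (21.7 to 28.3) at equal depth.

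Among the signalling members, Myd88 was seen at equal depth in 52.7% of Con cells, then in 40.5%, 47.5% and 54.1% with Veh, against 36.4%, 39.4% and 45.1% with DHA. The shares of Irak1 were 57.2% in Con, then 54.5%, 56.5% and 42.3% with Veh, against 52.3%, 56.6% and 39.0% with DHA. Irak3 was seen in 15.1% of Con cells, then in 23.4%, 25.2% and 35.1% with Veh, against 21.2%, 20.5% and 36.7% with DHA. Tirap ranged from 26.4% in DHA.LPS.1 to 41.0% in DHA.LPS.4, and Ticam2 from 4.91% in DHA.LPS.4 to 12.8% in DHA.LPS.0.

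Cd14 and Tlr2 had the highest Fano factors of the members, and also the most UMIs per thinned cell in every library. The Fano factor, the variance of UMIs per cell over their mean, is 1 for pure counting. For the same relative spread between cells it is higher where the mean is higher, so it does not rank these genes by relative spread. It was 3.31 to 7.81 for Cd14 and 1.36 to 2.95 for Tlr2, and 0.976 to 1.33 for the other 8 genes over the 7 libraries. The highest of these were for Irak3, with 1.33 in Veh.LPS.4 and 1.27 in DHA.LPS.1 and DHA.LPS.4. The median of Cd14 was 14, 20 and 37 UMIs per thinned cell in Veh at 0, 1 and 4 h and 10, 14 and 34 in DHA. Cells with fewer than 5 Cd14 UMIs made up 13.2% with DHA against 3.71% with Veh before LPS, 5.28% against 1.11% after 1 h, and 0.578% against 0.504% after 4 h. In the plots of UMIs per cell each library formed a single broad range for Cd14 that lay further to the right with LPS, with DHA and Veh overlapping over most of it, while Tlr2 was most often at 0 UMIs before LPS and at 1 h. For Tlr2, the share of cells with no UMI at equal depth was 37.5%, 29.4% and 10.3% in Veh and 41.1%, 27.4% and 12.6% in DHA.

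**Figure D3:**
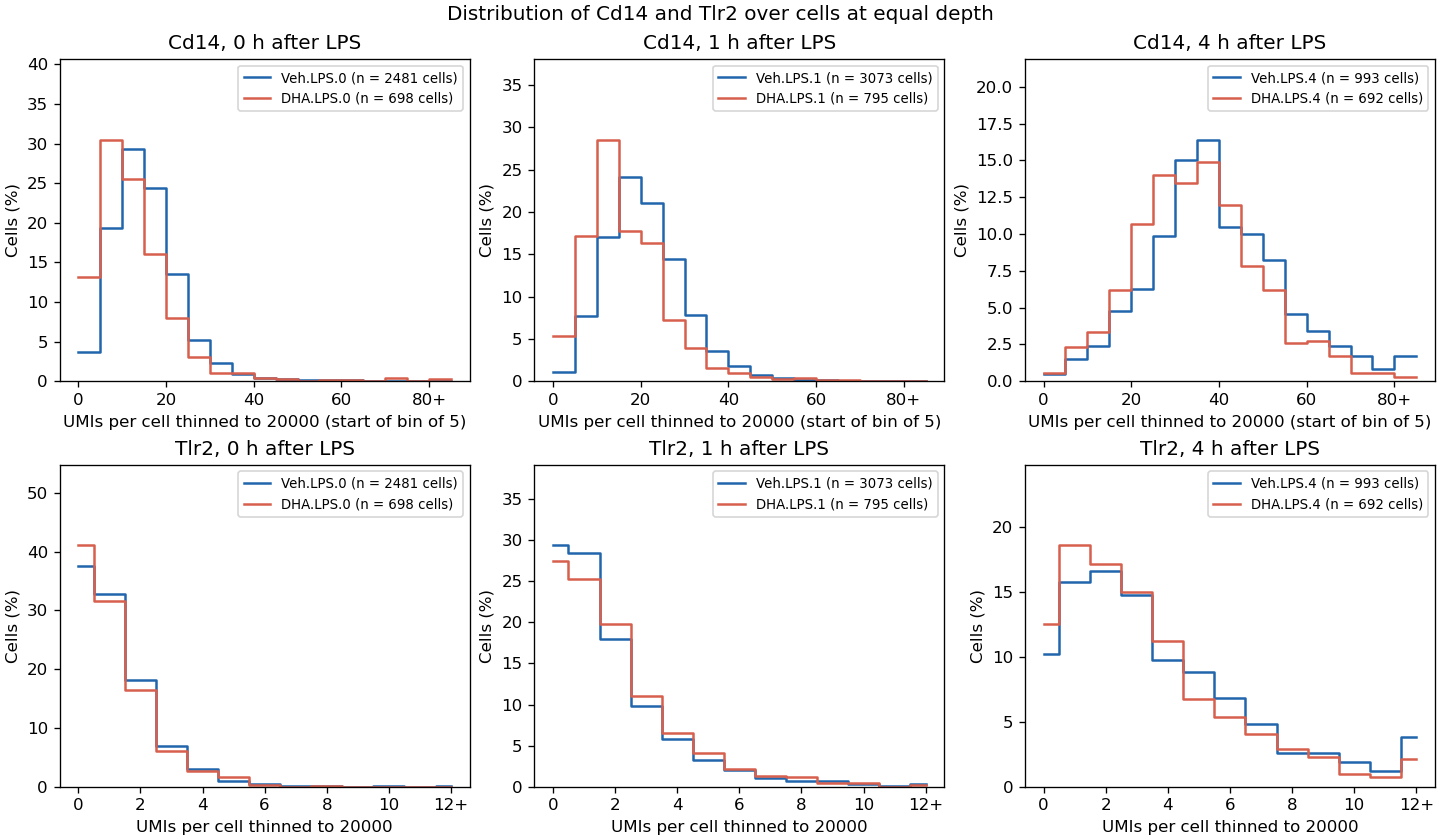
Share of cells (%) by UMIs per cell after thinning every cell to 20000 UMIs, for Cd14 (bins of 5 UMIs, last bin 80 and more) and Tlr2 (single UMIs, last bin 12 and more) at 0, 1 and 4 h, with Veh in blue and DHA in red. Cd14 medians were 14, 20 and 37 UMIs in Veh and 10, 14 and 34 in DHA, and the Tlr2 distributions of the treatments lay close to each other at each hour.

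A thinned cell held a median of 4 of the 10 genes in Con and at 0 and 1 h, and 5 at 4 h. For 5 pairs of members the share of cells with both was set beside the product of their single shares, and in all 7 libraries the product lay within the exact interval of the share. Tlr4 and Ly96, which make up the receptor with its lipid-binding partner, were found together in 14.1% of Con cells, where the product of their shares was 13.3%, and in 15.4% of Veh.LPS.4 cells, where it was 15.4%. In DHA.LPS.4 the values were 13.6% and 12.8%. Myd88 and Tirap were found together in 20.3% of Veh.LPS.4 cells, with a product of 19.6%, and Ticam1 and Ticam2 in 1.71%, with a product of 1.59%. Over these pairs and libraries the share lay on either side of the product. In percentage points it was furthest below for Irak1 and Irak3 in Veh.LPS.4, at 12.7% (10.7 to 14.9) against 14.9%. Next came Tlr4 and Ly96 in DHA.LPS.1, at 6.29% (4.70 to 8.21) against 8.10%. A missing UMI at this depth does not show that a cell lacked the RNA. Rank correlations between members over the cells of a library lay between -0.10 and 0.18 in all 315 pairs of genes and libraries. For Cd14, which most cells hold in many UMIs, the correlation with Tlr2 was -0.02 in Con and Veh.LPS.0 and -0.03 in DHA.LPS.0, then 0.05 and 0.10 at 1 h and 0.10 and 0.18 at 4 h, Veh and DHA in turn, and with Irak3 it was 0.11 and 0.15 at 4 h. These values are weak and describe the cells of single libraries.

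Genes whose levels moved most like each member over the 7 libraries were found by the root mean square difference of log2 CPM, each gene centred on its own mean, among 8099 genes with at least 100 UMIs in each library. With 7 points and so many candidates a close match for any gene is common, and the values are a description. Cd14 and Ly96 both had Akap13, an anchoring protein for protein kinase A, among their 3 closest genes, at 0.09 for each, beside Nol10 and Abhd17c for Cd14 and Ppp4r2 and Kdm4a for Ly96. Tlr2 was closest to Mrpl52 (0.09), Slc9a4 and Rap1b, and Tlr4 to 2700038G22Rik (0.09), Ints5 and Gemin5. Tirap was closest to Sh3bp5l (0.05), Msr1 and Rrp9, where Msr1 is the macrophage scavenger receptor, and Myd88 to Rbm12 (0.05), Anapc15 and Selenos. Ticam1 was closest to Cdk6 (0.13), Evi2a and Dot1l, Irak1 to Bag3 (0.06), Tdrd3 and Hmgxb4, and Irak3 to Gramd1a (0.11), Prdx5 and Lpcat2. Ticam2 had too few UMIs for this comparison.

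The other genes of the pathway were taken as 4 lists of 56 genes, whose counts at 4 h in Veh stand against 10.2% of all genes higher and 38.3% lower. Of the other Toll-like receptors, 3 of 10 had enough positive cells to be counted at 4 h in Veh and Tlr1, which pairs with TLR2, was higher by more than 1.5-fold, going from 5.67 to 10.2 CPM. With DHA it measured 6.44 CPM at that hour, more than 1.5-fold below Veh, where 2.42% of all genes were lower. In both comparisons Tlr1 could be counted only through Veh.LPS.4, where it was high and where cells were deepest. Of 10 counted partners and chaperones, 2 were higher and 3 lower at 4 h in Veh. The lower ones were Ly86, the partner of the TLR4-like receptor RP105, from 88.6 to 30.6 CPM, and the Toll-like receptor chaperone genes Cnpy3, from 69.5 to 27.7 CPM, and Cnpy4, from 7.72 to 3.05 CPM. Cnpy4 could be counted only through Veh.LPS.0, where it was higher. With DHA at 4 h 2 of 9 partners were lower than with Veh, where 2.42% of all genes were. They were Ly86, at 19.7 CPM, and Cd180, which encodes RP105 and was named after its values were seen, at 21.0 against 37.8 CPM. Cd36, a scavenger receptor that takes up fatty acids, was the only one of 10 partners past the limit with DHA at 0 h and of 9 at 1 h, with 51.6 CPM against 27.3 CPM and 53.0 CPM against 27.5 CPM. Of all genes, 1.08% were higher with DHA at 0 h and 1.33% at 1 h.

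Of 18 counted proximal kinases, ubiquitin ligases and factors, 3 were higher and 3 lower at 4 h in Veh. Between DHA and Veh at 4 h 0 of 18 were past the limit, where 2.22% of all genes were higher and 2.42% lower. With so small a share, 0 of 18 does not set these genes apart. Ikbke, the kinase IKKε that acts in the TRIF branch, measured 15.3, 30.8 and 49.8 CPM over the time course with Veh, against 11.2, 28.8 and 57.4 CPM with DHA. Peli1, a ubiquitin ligase of the IRAK step, measured 18.0, 32.0 and 54.4 CPM with Veh, against 18.6, 38.0 and 42.1 CPM with DHA. Irak4, the kinase that acts before IRAK1, went from 13.7 to 6.40 CPM in Veh, and Irf3, the interferon factor of the TRIF branch, from 20.5 to 11.1 CPM. Of 10 counted genes that restrain Toll-like receptors, 2 were higher and 6 lower. Tnfaip3, which encodes the deubiquitinase A20, had 4.10, 166 and 27.1 CPM in Veh at the 3 hours. Sigirr, an inhibitory receptor of the family, went from 9.80 to 2.12 CPM, Cyld, a deubiquitinase, from 40.5 to 13.8 CPM, and Inpp5d, the phosphatase SHIP1, from 33.4 to 11.5 CPM. Sigirr could be counted only through Veh.LPS.0, where it was higher. With TMM the counts at 4 h in Veh were 3 and 0 for the receptors, 3 and 3 for the partners, 7 and 1 for the kinases and 3 and 4 for the restraining genes, higher and lower in turn, against 21.6% and 21.1% of all genes.

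The 10 genes also differed between kept cells and the barcodes removed for at least 20% mitochondrial UMIs, which were 29.0% to 54.7% of barcodes in Con and Veh and 74.4% to 80.0% in DHA. Levels were taken over non-mitochondrial UMIs. The removed barcodes had no lower limit on UMIs and were shallower, with medians of 7415 in Con and 7610.5 in Veh.LPS.0, against 40486 and 36897 in kept cells. The share of all genes higher or lower in removed barcodes was not computed. The counts below therefore have no background beside them, and whether the split is particular to these genes was not tested. In all 7 libraries the 4 genes for surface or secreted proteins had higher levels in the removed barcodes, with ratios to kept cells of 1.75 to 2.64 for Tlr4, 1.88 to 3.31 for Tlr2, 2.36 to 2.97 for Cd14 and 2.36 to 4.17 for Ly96. In all 7 libraries 4 genes for cytosolic proteins had lower levels there, with ratios of 0.445 to 0.630 for Myd88, 0.562 to 0.950 for Tirap, 0.501 to 0.820 for Ticam1 and 0.573 to 0.836 for Irak3. The interval included 1 for Tirap in DHA.LPS.0 and Veh.LPS.4, and for Ticam1 and Irak3 in Veh.LPS.0. Irak1 was lower in 6 of 7 libraries, with ratios of 0.712 to 1.21, and Ticam2 was higher in 6 of 7, with ratios of 0.695 to 1.35. Of the Ticam2 ratios above 1, only that of DHA.LPS.0 had an interval without 1, at 1.06 to 1.57. In DHA.LPS.1, where Ticam2 was lower, the interval was 0.496 to 0.963. The removed share moved with DHA, and its part in the small differences between DHA and Veh was not tested.

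**Figure D4:**
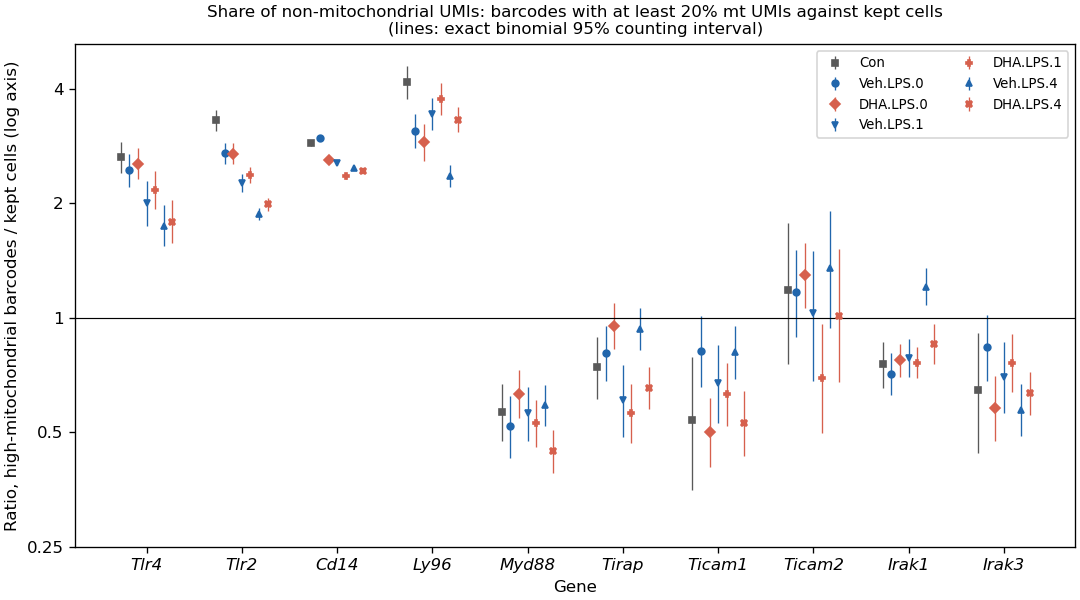
Ratio of each gene's share of non-mitochondrial UMIs in barcodes with at least 20% mitochondrial UMIs to its share in kept cells (log axis), one marker per library, with exact binomial 95% counting intervals as lines. The points of Tlr4, Tlr2, Cd14 and Ly96 lie above 1 in all 7 libraries and those of Myd88, Tirap, Ticam1 and Irak3 below 1 in all 7. Some intervals of Tirap, Ticam1 and Irak3 reach past 1.

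With all deposited barcodes in place of kept cells, Ly96 was higher with DHA at 4 h, with a log2 ratio of 0.45 in place of -0.18. The sign also changed for Tlr4, Tlr2, Cd14, Tirap and Irak3 at 4 h, for Tlr2 and Ly96 at 0 h and for Ticam2 at 1 h. Within the barcodes removed for mitochondrial share alone, by all UMIs, most of these signs were those of kept cells. Log2 ratios there at 4 h were -0.02 for Tlr4, -0.09 for Tlr2, -0.17 for Cd14 and 0.22 for Irak3. At 0 h they were -0.14 for Tlr2 and -0.37 for Ly96. Ticam2 at 1 h did change, to -0.33. The part of the removed share, which differed between DHA and Veh, in the pooled signs was not tested. The higher levels of Tlr2, Cd14 and Ly96 after 4 h of LPS were found in both kinds of barcode. Between DHA and Veh at 4 h, the removed barcodes were compared by all UMIs, mitochondrial ones included. They gave ratios of 0.461 (0.370 to 0.572) for Ticam1 and 0.626 (0.533 to 0.735) for Myd88, on the same side of 1 as in kept cells. Ly96 and Tirap lay on the other side, with ratios of 1.25 (1.17 to 1.33) and 0.770 (0.661 to 0.898) in the removed barcodes, and Irak1 had 0.662 (0.579 to 0.757) there.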

How the data were processed

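Single-cell libraries of 7 conditions were made with the 10x Chromium 3′ kit (v3 chemistry). The authors deposited, per library, raw UMI counts per gene and barcode from Cell Ranger, version 3.1.0 in the file headers and processing notes and another version in the methods, with build mm10 in the processing notes. A UMI stands for 1 captured 3′ end, so levels were not divided by gene length. The filter on barcodes followed the study (over 20000 UMIs, at least 2000 genes, under 20% mitochondrial UMIs). Doublets were not called. Counts were summed over kept cells and divided by the library total to give CPM. Ratios carry Clopper-Pearson intervals on the summed UMIs, and genes were counted by size (1.5-fold, 25% of cells), since 1 library per condition allows no test. Genes named from the other lists are those past 1.5-fold at 4 h of LPS in Veh or with DHA, at most 4 per list by size, and Cd180 was added after its values were seen. Cells were thinned with a fixed seed. Interval coverage was tested on simulated Poisson counts only. These hold no spread between cells or libraries beyond counting, so the coverage for the real counts was not tested. Cd14 and Tlr2 had Fano factors above 1 in every library, so their intervals leave out spread between cells and are too narrow for it. Alternatives used edgeR 4.0.16 (TMM) and DESeq2 1.42.0 size factors without their tests, counts per cell, per-cell means, other filters and thinned cells. Python 3.11.15, numpy 2.4.6 and scipy 1.17.1 were used. Coordinates and overlapping genes come from RefSeq annotation of GRCm38.p6, which is mm10. The 10 genes, the lists and the limits were chosen with earlier results of these data known.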

Additional observations from a re-analysis of the deposited data

Results flagged for a closer look

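Tlr2 stood on opposite sides of 1 between neighbouring hours in the comparison of DHA with Veh, with log2 ratios of -0.10 at 0 h, 0.11 at 1 h and -0.19 at 4 h, which are steps of 0.21 and -0.30. The sign at 0 h depended on the processing, with a log2 ratio of 0.23 per cell without scaling and 0.17 with all deposited barcodes. With all deposited barcodes the log2 ratio at 4 h was 0.004. With 1 library per condition the difference between the hours was not tested.

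The barcodes removed for their mitochondrial share lie outside the main comparisons, and they held differences between libraries whose whole interval lay past 1.5-fold. Here levels were taken over all UMIs, mitochondrial ones included, unlike in the comparison of removed barcodes with kept cells. The part that the mitochondrial share of each library had in these ratios was not tested. The share of all genes past 1.5-fold between libraries in these barcodes was not computed. The ratios below therefore have no background beside them, and whether they set these genes apart was not tested. For serum reduction the ratios in these barcodes were 2.65 for Ticam1 and 2.49 for Irak3. For 4 h of LPS in Veh they were 2.64 for Tlr2, 2.26 for Cd14, 2.13 for Ly96 and 1.91 for Myd88. In DHA at 4 h they were 2.72 for Tlr2, 2.87 for Cd14, 3.43 for Ly96 and 2.61 for Irak3, and on the lower side 0.570 for Tlr4 and 0.281 for Ticam2. After 1 h in DHA they were 1.67 for Tlr2, 1.85 for Ly96 and 0.313 for Ticam2. Between DHA and Veh at 4 h the ratio of Ticam1 was 0.461.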

How the results depend on the processing

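Depth and the single library per condition limit these values: Ticam2 has 52 UMIs in DHA.LPS.4, intervals cover counting error only, and no replicate can be left out. No paired analysis was possible because each condition has 1 library. With TMM or DESeq2 size factors, 1 member (Ticam1) was lower with DHA at 4 h, and each changed the sign of 3 of 80 ratios. Of all genes, 3.42% were lower with DHA at 4 h with TMM. Without scaling, per cell, 28 of 80 signs changed: members past the limit were 1 higher for serum reduction, 0 higher and 2 lower for LPS at 1 h in Veh and likewise in DHA, 3 higher and 3 lower at 4 h in DHA, and 9 lower with DHA at 4 h. Per cell without scaling, 6.9% of all genes were higher for serum reduction, and the other shares stand with the results above. For the settings that follow, apart from the limit of 50% of cells, the share of all genes was not computed. Those counts therefore have no background beside them. The mean of each cell's own CPM gave 1 lower for serum reduction and 2 lower at 4 h in DHA, as did a limit of 10000 UMIs. Under 10% mitochondrial UMIs, 2 were lower at 4 h in DHA. With all barcodes there were 1 higher and 1 lower for serum reduction, 2 higher and 0 lower for LPS at 1 h in DHA and 3 higher and 2 lower at 4 h in DHA. Between DHA and Veh, 2 were lower at 0 h (Myd88 and Irak3). At 1 h 1 was higher (Ly96) and 1 lower (Myd88), and at 4 h 2 were lower (Myd88 and Ticam1). Myd88 at 0 and 1 h and Ly96 at 1 h passed the limit neither in kept cells nor in barcodes removed for mitochondrial share. Asking for 50% of cells left 0 higher for serum reduction and 0 lower for LPS at 1 and 4 h in DHA. The shares of all genes there were 7.59%, 2.72% and 29.3% in turn. Setting no limit on cells gave 1 lower (Ticam2) for LPS at 1 and 4 h in Veh. Asking for the whole interval past 1.5-fold gave 1 higher and 0 lower for serum reduction, 0 higher for LPS at 1 h in Veh and 0 lower at 1 h in DHA. Thinned cells gave 0 higher for serum reduction, 1 lower (Irak1) for LPS at 4 h in Veh and 0 lower at 1 h in DHA. At 4 h in DHA the 1 member lower in thinned cells was Irak1, in place of Ticam2. The cause of these moves was not tested, apart from fewer genes passing a stricter limit. Leaving out cells over 2 times their library's median UMIs, an alternative chosen after seeing the data, changed no sign and kept every count within 1.5 times.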
